A study of Homo sapiens with 6 samples.

Results

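The 10 iron handling genes described here were the rows of the deposited gene table named FTH1, FTL, TFRC, SLC40A1, NCOA4, IREB2, ACO1, SLC11A2, STEAP3 and HMOX1, out of 38843 rows in all. They were chosen by name, as genes of iron uptake, storage, export and sensing, and each name had 1 row. Earlier results of these data were known when they were chosen. Messenger RNA had been sequenced from PC-3, a human line that was established from a bone metastasis of prostate cancer and grows without androgen, here labelled wild type. The cepharanthine group was 3 libraries of PC-3 cells collected on day 3 with 5 µM cepharanthine hydrochloride, a salt of an alkaloid from Stephania plants. The control group was 3 libraries of PC-3 cells labelled only as control, also from day 3. Both groups were kept in DMEM with 10% fetal bovine serum. The labels name no vehicle for the controls. Separate cultures are not stated for the replicates, and the p-values therefore describe only how far these libraries spread, which may be technical.

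Iron enters most cultured cells bound to transferrin, which the receptor encoded by TFRC carries into endosomes. There a STEAP reductase reduces the iron and the transporter encoded by SLC11A2 (DMT1) passes it to the cytosol. Surplus iron is stored in ferritin, a shell of heavy chains (FTH1), which oxidise the metal, and light chains (FTL), which help it to mineralise. NCOA4 delivers ferritin to lysosomes when iron is needed, HMOX1 frees iron from heme, and SLC40A1 (ferroportin) exports it. The iron regulatory proteins encoded by ACO1 (IRP1) and IREB2 (IRP2) bind a hairpin, the iron-responsive element, when cells lack iron. Bound at the start of a ferritin or ferroportin mRNA they block its translation, and bound near the end of TFRC mRNA they protect it from decay. Prostate cancer cells are known for high transferrin receptor levels.

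The hairpins are shown because they separate the genes that are regulated at the 5′ end of the mRNA from those regulated at the 3′ end. A search of GENCODE 29 transcripts (GRCh38), on the transcript strand, required the loop CAGTGN, an unpaired C before a stem of 5 pairs, and at least 4 of 5 pairs below it, with G-T pairs allowed. It found this form outside the coding sequence in FTH1, FTL, TFRC and SLC40A1, and a form with 1 extra unpaired base on the 3′ side of the stem in SLC11A2. The first form lay in the 5′ untranslated region of 7 of 19669 protein-coding genes (0.0356%) and in the 3′ untranslated region of 11 (0.0559%), and the second form in the 3′ untranslated region of 29 (0.147%). A match is a description of letters and not a measured site. Capitals mark the loop.
FTH1: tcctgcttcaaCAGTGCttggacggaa
FTL: tcttgcttcaaCAGTGTttggacggaa
SLC40A1: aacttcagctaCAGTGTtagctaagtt
TFRC, copy a: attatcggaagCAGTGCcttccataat
TFRC, copy b: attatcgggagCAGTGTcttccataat
TFRC, copy c: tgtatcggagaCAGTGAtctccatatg
TFRC, copy d: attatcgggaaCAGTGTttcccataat
SLC11A2: gccatcagagcCAGTGTgtttctatggt

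The FTH1 and FTL elements matched at 25 of 27 bases. The FTH1 element lay in exon 1 at chr11:61967575-61967601 on the minus strand and the FTL element in exon 1 at chr19:48965336-48965362 on the plus strand. The SLC40A1 element lay in exon 1 at chr2:189580662-189580688 on the minus strand. The 4 TFRC elements that the search found lay in exon 19, on the minus strand between chr3:196050464-196050490 and chr3:196050980-196051006. Their letters only give the order of the matches along the transcript. An element with a loop other than CAGTGN would be missed, so 4 need not be all that TFRC carries. The SLC11A2 element lay in exon 17 at chr12:50988269-50988296 on the minus strand, in 5 of its transcripts, and the deposited counts are per gene and do not separate transcripts with and without it.

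Total counts were 53017816 to 68241156 in cepharanthine libraries and 52774506 to 59241954 in control libraries, where CPM are counts scaled to one common library size. A count of 0 allows up to 3 counts, which is 0.0426 to 0.0594 CPM in these libraries and covers counting error only. Mitochondrially encoded genes took 4.86% to 6.61% of counts in cepharanthine and 8.75% to 12.2% in control libraries. The libraries held the keratins, EPCAM and VIM of PC-3 cells, at a summed 2040 to 2240 CPM with cepharanthine and 1630 to 1670 CPM in controls. Within this sum VIM was at 1070 to 1258 CPM with cepharanthine and 649.6 to 749 CPM in controls, and EPCAM at 40.2 to 43.4 CPM with cepharanthine and 52.6 to 56.5 CPM in controls. Summed markers were 57.1 to 71.9 CPM with cepharanthine and 48.1 to 75.0 CPM in controls for 3 leukocyte genes, and 1.36 to 2.45 CPM with cepharanthine and 2.83 to 3.68 CPM in controls for 4 erythroid genes, most of it ALAS2, which is also among the iron genes below. They were 19.2 to 24.7 CPM with cepharanthine and 43.7 to 48.1 CPM in controls for 3 endothelial genes, nearly all of it PECAM1. They were 52.9 to 62.1 CPM with cepharanthine and 80.4 to 101 CPM in controls for 3 fibroblast genes, nearly all of it COL1A1. The 3 liver genes summed to 0.0557 to 0.321 CPM with cepharanthine and 0.455 to 0.618 CPM in controls. CD68 made up nearly all of the leukocyte sum, at 54.5 to 69.5 CPM with cepharanthine and 45.4 to 71.6 CPM in controls. Of the other leukocyte, endothelial and fibroblast genes, CD14 was at 1.22 to 2.94 CPM and PDGFRA at 0.071 to 0.730 CPM over all libraries. PTPRC, VWF, CDH5 and DCN stayed under 0.5 CPM in every library. What part these marker levels and the mitochondrial share have in the results was not tested. In bulk RNA, fewer cells of a type and less RNA per cell cannot be told apart.

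The comparison of treated with control cells belongs to a study of how cepharanthine acts against prostate cancer. Transcripts of both ferritin chains rose with cepharanthine to 2.58 and 2.59 times the control level. Transcripts of the transferrin receptor TFRC and of the endosomal reductase STEAP3 fell to 0.773 and 0.684 times it. In the 6 fits that leave out 1 library the TFRC call held in only 2 and the STEAP3 call in all 6. The other 6 genes, NCOA4, HMOX1, SLC40A1, SLC11A2, IREB2 and ACO1, did not pass the test, and the heme oxygenase HMOX1 was split by 1 control library. Among all 21965 genes tested 27.9% passed the same test (adjusted p under 0.05 by the quasi-likelihood test of edgeR with Benjamini-Hochberg adjustment), 14.7% higher and 13.2% lower. Of these calls 52.6% were higher, against 62.5% with limma on the deposited FPKM and 83.1% after rescaling to TPM. Among the 10 iron handling genes 2 rose and 2 fell, and their median log2 fold change of 0.25 stands beside -0.02 for all genes. That median includes SLC40A1, which had only 54 counts over the cepharanthine libraries and 12 over the control libraries. Without SLC40A1 the middle gene was NCOA4, at 0.18. Because the genes were chosen with earlier results known, these figures are a description and not a test. In 7 of the 10 genes the groups did not overlap, against 43.4% of all genes tested.

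**Figure D1:**
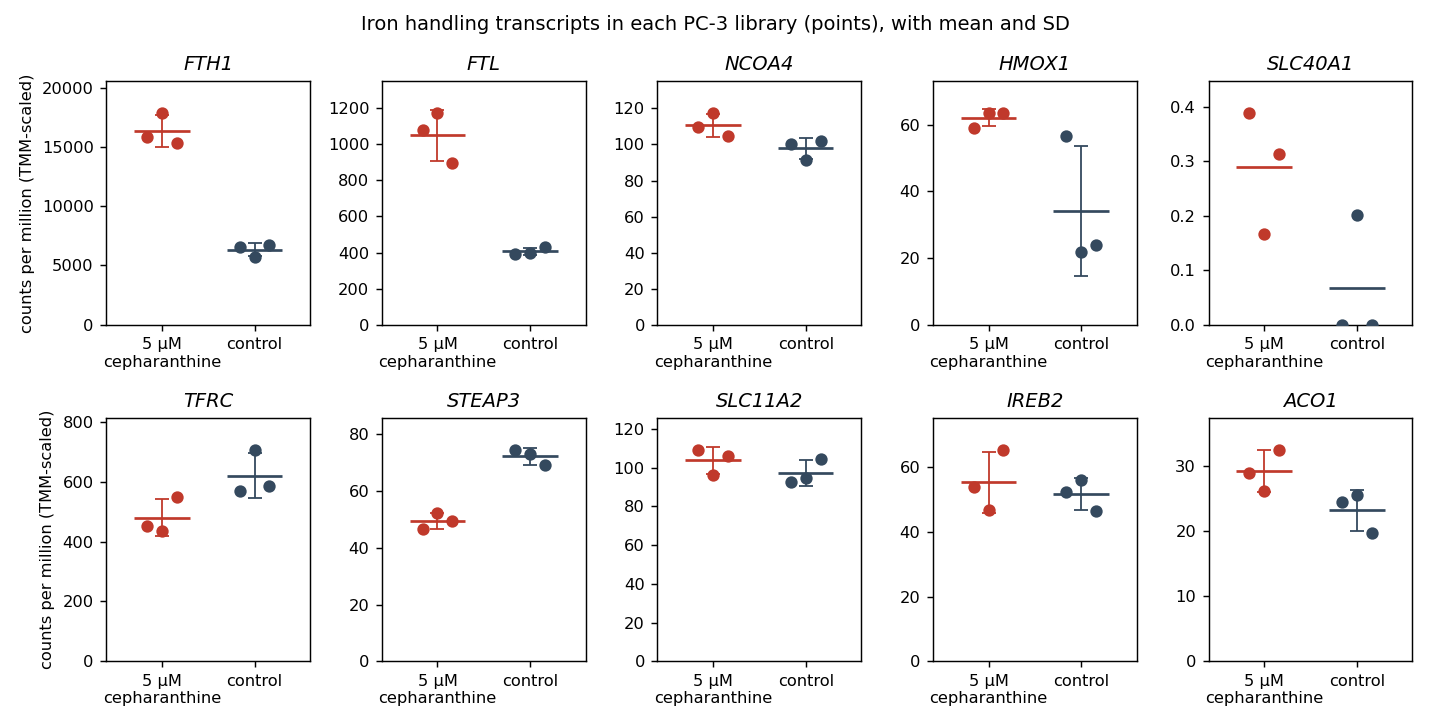
TMM-scaled CPM (vertical axes, each from 0) of the 10 iron handling genes in the 3 cepharanthine libraries (red, left) and 3 control libraries (dark blue, right), with the group mean as a line and the SD as a bar (no SD is drawn for SLC40A1, which had 0 counts in 2 control libraries). FTH1 and FTL lay higher and TFRC and STEAP3 lower in all 3 cepharanthine libraries than in any control library, and control replicate 1 lay near the cepharanthine libraries for HMOX1.

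Both ferritin chain genes rose. FTH1 (ENSG00000167996, chromosome 11 from 61959718 to 61967634) had 15815, 17869 and 15310 CPM in cepharanthine libraries and 6535, 5743 and 6727 CPM in control libraries, after scaling of library sizes by TMM. The lowest treated library was above every control library by far more than the spread within a group. Its log2 fold change was 1.37 ± 0.09 (SE), with an edgeR adjusted p of 8.8e-06. FTH1 took 1.58% to 1.81% of all counts with cepharanthine and 0.579% to 0.644% in controls. Per kilobase, on the deposited FPKM scale, it averaged 7226 ± 282 FPKM with cepharanthine and 2698 ± 118 FPKM in controls (SD, n = 3 each), which ranked it 2nd of all genes in treated cells and 15th in control cells.

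FTL (ENSG00000087086, chromosome 19 from 48965309 to 48966879) had 1081, 1175 and 896 CPM with cepharanthine and 393, 396 and 429 CPM in controls. The groups again lay apart, and cepharanthine replicate 3 was the lowest treated library for both chains. The log2 fold change was 1.37 ± 0.10 with an edgeR adjusted p of 1.8e-05. FTL averaged 1068 ± 105 FPKM with cepharanthine and 399 ± 15.2 FPKM in controls (SD, n = 3 each).

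The balance of the chains moved less than it varied between libraries. There were 14.6, 15.2 and 17.1 FTH1 counts for each FTL count in cepharanthine libraries and 16.6, 14.5 and 15.7 in control libraries. The log2 ratio averaged 3.96 ± 0.12 with cepharanthine and 3.96 ± 0.10 in controls (SD, n = 3 each; two-sided exact permutation test, p = 1.0, with 0.1 as the lowest value possible for 3 against 3). The sign of this difference changed when cepharanthine replicate 3 was left out (-0.06) and when control replicate 2 was left out (-0.05). Per kilobase the heavy chain was at 6.36 to 7.43 times the light chain with cepharanthine and 6.30 to 7.22 times in controls.

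Ferritin genes have processed copies elsewhere in the genome whose reads the authors' counting could have split from the parent. The 16 rows named as FTH1 pseudogenes summed to 0.651% to 0.673% of the FTH1 count in cepharanthine libraries and 0.581% to 0.649% in control libraries. Of the 11 that could be tested 9 rose and 0 fell, while 14.7% of all genes tested were called higher and 13.2% lower. The 11 rows had a median log2 fold change of 1.42, beside 1.37 for FTH1 itself. FTH1P2 had 2088, 2074 and 1986 counts with cepharanthine and 704, 721 and 762 in controls. FTH1P8 had 1587, 1650 and 2272 counts with cepharanthine and 476, 612 and 547 in controls, and FTH1P10 had 741, 896 and 939 with cepharanthine and 247, 278 and 287 in controls. Whether these counts are reads of FTH1 or of the copies was not tested. The 8 FTL pseudogene rows summed to 51 to 80 counts with cepharanthine and 33 to 74 in controls, at most 0.313% of FTL. FTLP3, FTLP12 and FTLP14 held most of them, with 36, 47 and 38 counts of FTLP3 with cepharanthine and 14, 34 and 21 in controls. FTH1 also overlaps BEST1 on the opposite strand, whose counts were 1.02% to 3.21% of those of FTH1 with cepharanthine and 2.67% to 5.27% in controls, and whether strand was used in counting is not given in the sources used here.

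Of the uptake genes, TFRC (ENSG00000072274, chromosome 3 from 196027183 to 196082096) had 453, 435 and 549.99 CPM with cepharanthine and 569, 707 and 585 CPM in controls. The groups did not overlap, but the highest treated library lay close to the lowest control library. The log2 fold change was -0.37 ± 0.11 with an edgeR adjusted p of 0.0318. The call held without cepharanthine replicate 3 (edgeR adjusted p = 0.0114) and without control replicate 1 (edgeR adjusted p = 0.0385). It ended without cepharanthine replicate 1 (edgeR adjusted p = 0.119), cepharanthine replicate 2 (edgeR adjusted p = 0.124), control replicate 2 (edgeR adjusted p = 0.0986) or control replicate 3 (edgeR adjusted p = 0.0593), and with limma on log2(FPKM + 1) (adjusted p = 0.137), with log2 fold changes between -0.48 and -0.27 over the 6 fits that leave out 1 library. When any 1 of those 4 libraries was left out, 1 iron handling gene fell instead of 2.

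STEAP3 (ENSG00000115107, chromosome 2 from 119223831 to 119265652), the main ferric reductase of transferrin endosomes in erythroid precursors of mice, had 46.4, 52.2 and 49.3 CPM with cepharanthine and 74.5, 72.9 and 68.9 CPM in controls. Every treated library lay below every control library, with an SD of 2.86 CPM with cepharanthine and 2.88 CPM in controls. The log2 fold change was -0.55 ± 0.08 with an edgeR adjusted p of 6.2e-04, and it passed in each of the 6 fits that leave out 1 library, but not with limma after rescaling to TPM (-0.30, adjusted p = 0.0715). An antisense gene, STEAP3-AS1, overlaps it, with 55, 19 and 37 counts with cepharanthine and 59, 58 and 50 in controls.

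SLC11A2 (ENSG00000110911), the endosomal iron transporter, had 109, 96.0 and 106 CPM with cepharanthine and 92.3, 94.5 and 105 CPM in controls. The groups overlapped, and the log2 fold change was 0.09 ± 0.08 with a 95% interval from -0.09 to 0.28 (edgeR adjusted p = 0.441).

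A ratio taken within a library does not depend on scaling between libraries. For each 100 FTH1 counts there were 2.86, 2.44 and 3.59 TFRC counts in cepharanthine libraries and 8.70, 12.3 and 8.70 in control libraries. The ratio was thus lower in 3 of 3 treated libraries than in any control library, by -1.74 on the log2 scale or 3.34-fold. A two-sided exact permutation test gave p = 0.1, the lowest value possible for 3 against 3. Because FTH1 lay higher and TFRC lower in every treated library, this separation and p-value were already fixed and are not separate support. Per kilobase TFRC was at 0.626% to 0.924% of FTH1 with cepharanthine and 2.24% to 3.17% in controls. Most of this difference was the change of FTH1, since the log2 fold changes were 1.37 for FTH1 and -0.37 for TFRC.

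**Figure D2:**
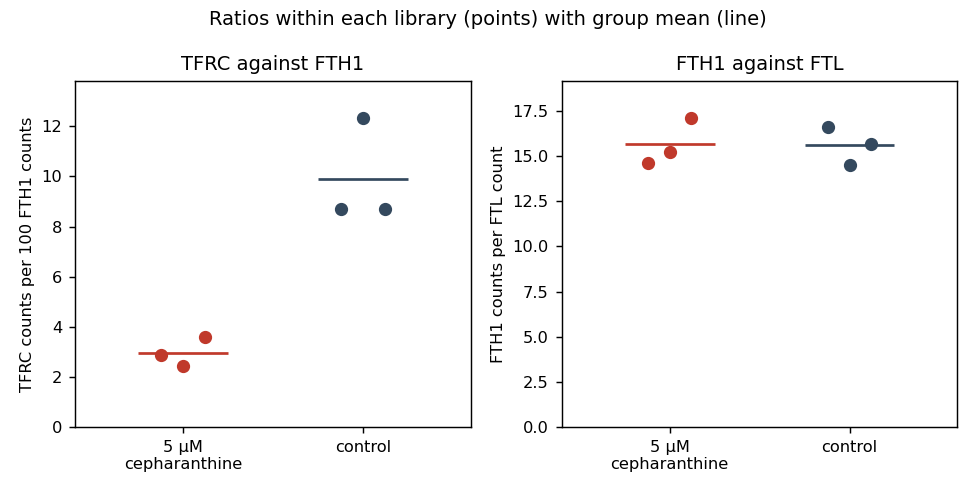
TFRC counts per 100 FTH1 counts (left panel) and FTH1 counts per FTL count (right panel) in each cepharanthine library (red, left) and control library (dark blue, right), with the group mean as a line and axes from 0. The left ratio was 2.44 to 3.59 with cepharanthine and 8.70 to 12.3 in controls, while the right ratio covered 14.6 to 17.1 with cepharanthine and 14.5 to 16.6 in controls.

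Of the genes that release or export iron, HMOX1 (ENSG00000100292, chromosome 22 from 35380361 to 35390293), the inducible heme oxygenase, had 59.1, 63.6 and 63.6 CPM with cepharanthine and 56.7, 21.7 and 24.1 CPM in controls. The treated libraries were close together, and 1 control library stood near them while the other 2 were far below. The log2 fold change was 0.86 ± 0.30 and missed the threshold (95% interval 0.20 to 1.53, edgeR adjusted p = 0.0558). With all 6 libraries, limma called it higher on log2(FPKM + 1) (adjusted p = 0.0320), with a pseudocount of 0.1 (0.0476), with median-ratio scaling (0.0491) and after rescaling to TPM (0.0173). Limma on log2(FPKM + 1) without a filter (adjusted p = 0.169) and DESeq2 (adjusted p = 0.133) did not call HMOX1. Without control replicate 1 the edgeR log2 fold change was 1.44 ± 0.09 with an edgeR adjusted p of 7.8e-05, and the count of iron handling genes that rose was 3. The HMOX1 level of that library was 2.48 times the mean of the other 2 control libraries, and for the 8 other genes above 1 CPM this ratio was between 0.880 and 1.08.

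NCOA4 (ENSG00000266412), the receptor that delivers ferritin to lysosomes, had 110, 118 and 105 CPM with cepharanthine and 100.3, 91.2 and 102 CPM in controls. The groups lay apart by a small margin, and the log2 fold change of 0.18 ± 0.08 missed the threshold after adjustment (95% interval 0.002 to 0.35, edgeR adjusted p = 0.126), although limma on log2(FPKM + 1) called it higher (0.22 ± 0.07, adjusted p = 0.0453). SLC40A1 (ENSG00000138449), the exporter, was barely detected, with 23, 9 and 22 counts with cepharanthine and 0, 12 and 0 counts in controls. Both groups lay at or under 0.389 CPM and overlapped, and the edgeR adjusted p was 0.259. Without control replicate 2, which held all the control counts, the edgeR adjusted p was 0.0248 and 3 iron handling genes were called higher. No fold is given for so few counts.

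The regulators did not pass the test. ACO1 (ENSG00000122729), which encodes IRP1, a protein that is the cytosolic aconitase when it holds an iron-sulfur cluster, had 29.003, 26.2 and 32.6 CPM with cepharanthine and 24.4, 25.6 and 19.7 CPM in controls. Its groups lay apart only narrowly, with a log2 fold change of 0.33 ± 0.12 (95% interval 0.05 to 0.61, edgeR adjusted p = 0.0767). DESeq2 gave it an adjusted p of 0.0486. IREB2 (ENSG00000136381), which encodes IRP2, had 53.8, 46.7 and 65.3 CPM with cepharanthine and 52.1, 56.1 and 46.3 CPM in controls. These overlapped, with a log2 fold change of 0.10 ± 0.12 (95% interval -0.17 to 0.38, edgeR adjusted p = 0.589).

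**Figure D3:**
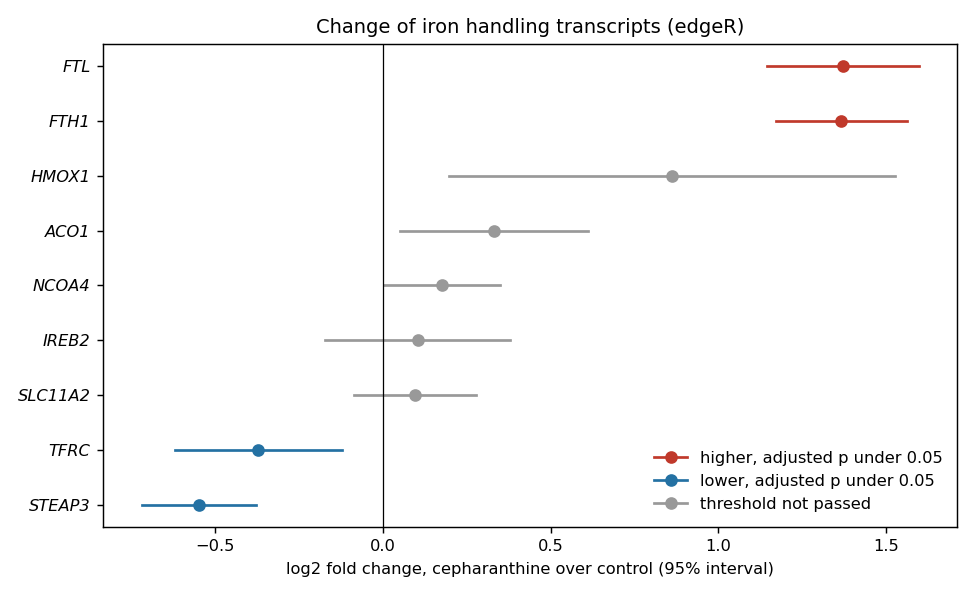
Log2 fold change of cepharanthine over control (horizontal axis) for 9 of the iron handling genes, with its 95% interval from the edgeR fit. Red marks genes called higher, blue genes called lower and grey genes that missed an adjusted p of 0.05; FTL and FTH1 sit at 1.37, and STEAP3 and TFRC at -0.55 and -0.37. SLC40A1 is left out because it had too few counts.

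Per kilobase the genes kept nearly the same order in both groups. In cepharanthine cells FTH1 led, then FTL, TFRC at 47.3 to 65.0 FPKM, NCOA4 at 23.6 to 24.4, HMOX1 at 23.1 to 25.5, STEAP3 at 9.13 to 9.96, SLC11A2 at 8.20 to 9.91, IREB2 at 3.66 to 5.57, ACO1 at 2.93 to 3.97 and SLC40A1 at 0.0334 to 0.0813 FPKM. The library ranges of NCOA4 and HMOX1, of STEAP3 and SLC11A2, and of IREB2 and ACO1 overlapped there. In control cells STEAP3, at 12.5 to 14.3 FPKM, came before HMOX1, at 8.44 to 20.8 FPKM, and the HMOX1 range overlapped those of STEAP3, SLC11A2 and NCOA4 (20.0 to 20.7 FPKM).

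Genes whose levels followed those of 3 of these genes most closely over the 6 libraries were found by Pearson correlation of log2 CPM. The correlation reads the difference between the groups together with differences within a group, and is given as a description. It does not read the size of a change. For FTH1 the closest genes were CSTB (r = 0.999), RAB8A (r = 0.999) and ST13 (r = 0.998), and 2176 of 21955 genes had r above 0.9. Their log2 fold changes were 1.71 for CSTB, 0.32 for RAB8A and 0.44 for ST13, beside 1.37 for FTH1. For TFRC the closest genes were AL590428 (r = 0.995), LRPPRC (r = 0.994) and RNASEH1 (r = 0.993), with 429 genes above 0.9. These had log2 fold changes of -0.94, -0.22 and -0.16, beside -0.37 for TFRC. For HMOX1, where control replicate 1 stood near the treated libraries, the closest genes were AC007278 (r = 0.996), OAS2 (r = 0.993) and TMPRSS7 (r = 0.992), with 345 genes above 0.9. Here the log2 fold changes were 1.14, 0.46 and 1.87, beside 0.86 for HMOX1.

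Of the other genes of iron metabolism, 88 could be tested, and 22 rose and 13 fell, or 39.8% called, beside 27.9% of all genes tested, with 14.7% higher and 13.2% lower. Their median log2 fold change was 0.13, beside -0.02 for all genes. The lists were also made with earlier results of these data known, so these shares are a description and not a test of iron genes against all genes. Each of the 7 roles held at least 1 gene that rose and 1 that fell, as the plot by role shows, and no role is singled out from these counts.

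Among genes of uptake and reduction 3 rose and 3 fell of 14 tested. Within the STEAP family of STEAP3 the members went apart. STEAP1, a prostate cancer surface antigen of that family, had 33.1, 30.7 and 32.8 CPM with cepharanthine and 16.7, 19.9 and 17.4 CPM in controls (log2 fold change 0.84 ± 0.10, edgeR adjusted p = 2.5e-04). STEAP2 rose by 0.34 ± 0.07 on the log2 scale (edgeR adjusted p = 0.00763). STEAP4 had 5.68, 5.48 and 4.12 CPM with cepharanthine and 16.1, 14.6 and 11.9 CPM in controls (-1.48 ± 0.18, edgeR adjusted p = 2.7e-04). Melanotransferrin, MELTF, fell by 0.44 on the log2 scale, a call that limma on log2(FPKM + 1) did not make (adjusted p = 0.0561).

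Among genes of export and its systemic control 1 rose and 1 fell of 9 tested. PROM2, which has been tied to ferritin export in vesicles, had 7.91, 5.22 and 5.73 CPM with cepharanthine and 29.4, 23.1 and 26.1 CPM in controls (log2 fold change -2.06 ± 0.17, edgeR adjusted p = 3.5e-05). The ferroxidase HEPHL1 had 52.2, 52.6 and 52.6 CPM with cepharanthine and 28.8, 33.2 and 31.6 CPM in controls (0.75 ± 0.08, edgeR adjusted p = 1.5e-04). The heme exporter FLVCR1 and the growth factor BMP6 missed the threshold, at 0.18 ± 0.09 and -1.31 ± 0.66. BMP6 was barely detected, with 8 to 45 counts in a library and groups that overlapped, so its fold change is uncertain.

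Among chaperones, ferritin turnover and sensing genes 5 rose and 1 fell of 11 tested. The gene that fell was HERC2, a ubiquitin ligase that targets NCOA4, with 214 ± 6.87 CPM with cepharanthine and 303 ± 14.8 CPM in controls (SD, n = 3 each; log2 fold change -0.50 ± 0.07). BACH1, the heme-binding repressor of HMOX1 and of ferritin genes, had 76.9, 71.4 and 93.0 CPM with cepharanthine and 56.7, 48.9 and 50.02 CPM in controls (0.63 ± 0.11, edgeR adjusted p = 0.00193). SKP1, a subunit of the ligase that degrades IRP2, rose by 0.49 ± 0.08 (log2, as are all further changes), and CD63, a tetraspanin of secreted vesicles, by 0.51 ± 0.09. NFE2L2, which encodes NRF2, an activator of HMOX1 and ferritin genes, and the iron chaperone PCBP2 were named after their values were seen. NFE2L2 had 112, 115 and 100.6 CPM with cepharanthine and 87.2, 83.6 and 88.5 CPM in controls (0.33 ± 0.08, edgeR adjusted p = 0.00852), and PCBP2 rose by 0.32 ± 0.07.

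Among 5 further mRNAs known to carry an iron-responsive element 1 rose and 2 fell. EPAS1 (HIF-2α) rose by 0.41 ± 0.12, and the erythroid enzyme ALAS2 fell by 0.77 on the log2 scale. The EPAS1 call ended without cepharanthine replicate 1, cepharanthine replicate 2 or control replicate 2 (edgeR adjusted p = 0.0645, 0.101 and 0.0558), and that of ALAS2 when any 1 of the 6 libraries was left out (edgeR adjusted p = 0.0524 to 0.118). The kinase gene CDC42BPA was at 211 ± 7.18 CPM with cepharanthine and 203 ± 9.32 CPM in controls (SD, n = 3 each; edgeR adjusted p = 0.576).

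Among genes of heme synthesis, transport and breakdown 2 rose and 3 fell of 14 tested. BLVRB, biliverdin reductase B, had 28.8, 32.2 and 34.3 CPM with cepharanthine and 17.0, 18.4 and 16.7 CPM in controls (log2 fold change 0.87 ± 0.10, edgeR adjusted p = 2.2e-04). UROD, a heme synthesis enzyme, rose by 0.40 ± 0.09, while the heme transporter SLC48A1 fell by 0.43 on the log2 scale.

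Among genes of mitochondrial iron and iron-sulfur cluster assembly 7 rose and 3 fell of 24 tested. SLC25A37 (mitoferrin 1), which imports iron into mitochondria, had 119, 117 and 103 CPM with cepharanthine and 157, 157 and 149.99 CPM in controls (log2 fold change -0.46 ± 0.08, edgeR adjusted p = 0.00203). The mitochondrial transporter ABCB8 fell by 0.52 on the log2 scale. The cluster assembly factor LYRM4 and the chaperone HSPA9 rose by 0.64 ± 0.12 and 0.41 ± 0.07. In the cytosolic assembly system 3 rose and 1 fell of 12 tested, with CIAO2A, GLRX3 and CIAO2B higher (0.75 ± 0.15, 0.51 ± 0.09 and 0.45 ± 0.13) and the targeting factor MMS19 lower (-0.49 ± 0.08). The CIAO2B call ended in 5 of the 6 fits that leave out 1 library (edgeR adjusted p = 0.0553 to 0.0926), all but the one without control replicate 2. The near-identical copies BOLA2 and BOLA2B can share reads, and their values are uncertain.

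**Figure D4:**
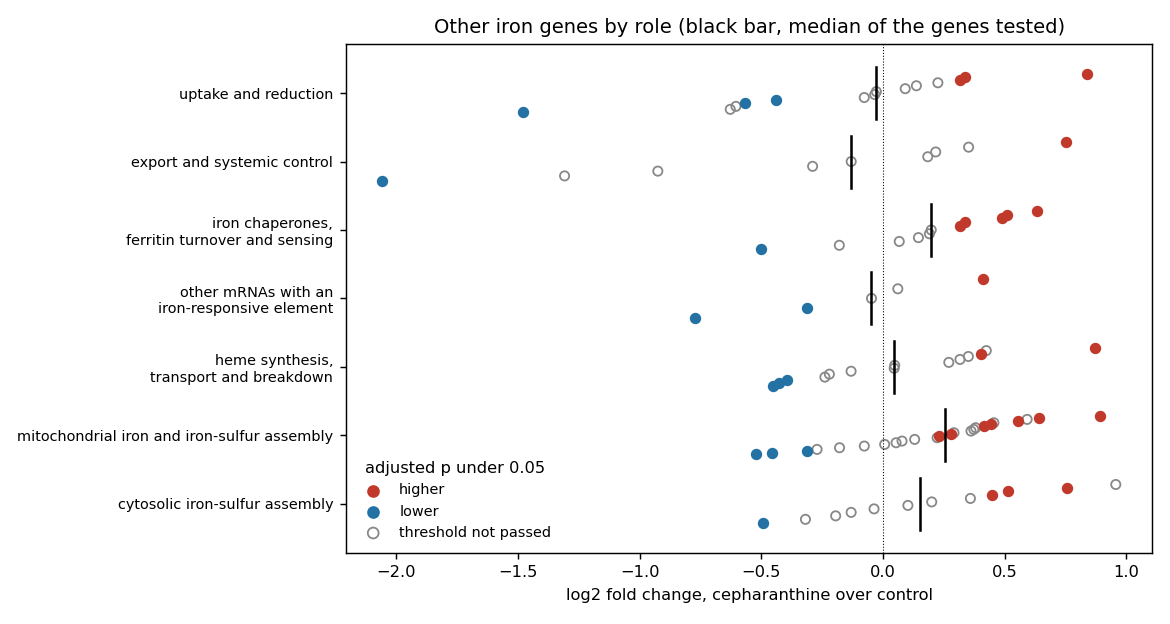
Log2 fold change of cepharanthine over control (horizontal axis) of the other genes of iron metabolism, in rows by role, where each point is 1 gene tested and the black bar is the median of its row. Filled red and blue points are genes called higher and lower and open points missed an adjusted p of 0.05; PROM2 at -2.06 and STEAP4 at -1.48 lie farthest to the left.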

How the data were processed

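Per the labels' protocols, RNA was extracted with TRIzol and made into libraries with a SMARTER mRNA-Seq kit. The deposited table holds raw read counts and FPKM per gene in 6 libraries, per the file headers. For the aligner, the counting tool, the use of strand, the annotation release and the length behind FPKM, no source used here gives a name. Per the submitters' processing notes, GRCm38, mm10 and hg38 were named, without roles. All 10 iron handling genes lay on the same chromosome as in GENCODE 29 (GRCh38), 9 of them with a shared start or end. The control columns are named differently from the sample titles, so group and replicate number were used to match them.

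After filterByExpr, library sizes were scaled by TMM. A two-sided quasi-likelihood test in edgeR 4.0.16 (R 4.3.3) compared the groups, and Benjamini-Hochberg adjustment covered the 21965 genes kept. The SE is the log2 fold change divided by the square root of F. CPM are TMM-scaled. Alternatives used DESeq2 1.42.0, limma 3.58.1 on log2(FPKM + 1) and other scalings, filters and sets of libraries. Adding pseudogene counts to FTH1 and FTL was chosen after seeing the data. Permutation tests used scipy 1.17.1.

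The 10 genes and the lists by role were chosen with earlier results of these data known. Of 99 symbols listed as other iron genes, 92 had a row. The text names all 10 genes and, of each role, up to 4 genes with the smallest adjusted p. Some genes that this rule or the marker lists hold are counted but not reported here by name. Others are said to be named after their values were seen.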

Additional observations from a re-analysis of the deposited data

How the results depend on the processing

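FTH1 and FTL were called higher under all 17 alternatives, with log2 fold changes of 1.30 to 1.61 for FTH1 and 1.28 to 1.602 for FTL. STEAP3 was called lower under 15 of 16 and TFRC under 6 of 16. TFRC also missed the threshold without a filter (edgeR adjusted p = 0.0676), while DESeq2, the RLE factors and a fit without mitochondrially encoded genes kept 2 lower calls. HMOX1 was called higher under 6 of 16 alternatives (log2 fold changes 0.62 to 1.44). The count of iron handling genes that rose, 2, was 4 with limma on log2(FPKM + 1) and 5 after rescaling to TPM, and 2 to 3 without any 1 library. The count that fell, 2, was 1 without a filter, 1 with each of 3 limma fits on FPKM as deposited, 0 after rescaling to TPM, and 1 to 2 without any 1 library. After rescaling to TPM the median over all genes was 0.26 (log2), against 0.07 on FPKM as deposited. Relative to that median FTH1 was at 1.345, STEAP3 at -0.56 and TFRC at -0.39. Other iron genes that rose numbered 35 after rescaling to TPM, and those that fell 8, 7 and 8 with limma on filtered FPKM with a pseudocount of 1 or 0.1 and on unfiltered FPKM, and 1 after rescaling. Over all genes, the same 4 fits called 1899, 1832, 1695 and 981 lower. Calls were 62.5% higher on FPKM as deposited and 83.1% after rescaling, against 52.6% in the edgeR test. Of 25 other named genes called, 13 kept their call under every alternative and none changed sign. IREB2 ranged from -0.0339 to 0.211 and the FTH1 to FTL log2 ratio difference from -0.0624 to 0.0499 without any 1 library, so their signs are not fixed, and the cause was not tested. The TFRC to FTH1 ratio ranged from -1.89 to -1.57.

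Equal replicate numbers did not pair the libraries: deviations from the group means correlated at 0.00, -0.01 and -0.07, and 1 of 6 libraries correlated best with its own number. With the number as a replicate block, 3 iron handling genes were higher and 1 lower, HMOX1 passing (edgeR adjusted p = 0.0336) and TFRC not (edgeR adjusted p = 0.0659), and 2544 of all genes were called higher and 2294 lower.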
